A study of Homo sapiens with 6 samples.

Results

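Chemokines are small secreted proteins that guide the movement of leukocytes, and tumour cells also make them. The 10 chemokines described here are CXCL1, CXCL2, CXCL3, CXCL5, CXCL8, CXCL10, CXCL16, CCL2, CCL5 and CCL20, out of 19775 genes that have a probe set of their own on the array. Every probe set whose only gene symbol was one of these 10 was taken, which gave 17 probe sets, and 0 further probe sets named one of them beside another symbol. They were measured in MDA-MB-231, an invasive and triple-negative human breast cancer line, on Affymetrix U133 Plus 2.0 arrays. The 3 control arrays held RNA of cells with a pLKO.1 lentiviral short hairpin against GFP (shGFP), and the 3 knockdown arrays RNA of cells with a hairpin vector against ATAD3A (shATAD3A), an ATPase of the mitochondrial inner membrane. Both groups had been infected, selected in puromycin at 1 µg/ml for 2 weeks and used at passage 2, so viral infection and drug selection were shared by the controls. The number of hairpins and of independently infected cultures is not stated in the labels. The study set average transcript levels of the knockdown cells against those of the control cells.

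The group names follow the chemokine receptors and the spacing of the first cysteines. CXC chemokines with the glutamate-leucine-arginine motif, here CXCL1, CXCL2, CXCL3, CXCL5 and CXCL8, bind CXCR2 and attract neutrophils. CXCL10 is an interferon-inducible ligand of CXCR3 on T cells, and CXCL16 is made as a membrane-bound protein that binds CXCR6 and can be shed. CCL2 attracts monocytes through CCR2, CCL5 attracts T cells and monocytes, and CCL20 binds CCR6. Many of these genes are classical targets of NF-κB, a transcription factor family switched on by interleukin-1, tumour necrosis factor and Toll-like receptors.

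Levels are given as the log2 values the authors deposited. A change is the knockdown mean less the control mean, and errors are the SD over n = 3 arrays or the SE from limma. Array medians lay between 3.16 and 3.23. Probe-set means crowded at low values, called the low mode here, with a wide spread above. The point of lowest density between both, at 4.87 on the log2 scale, was used as the upper edge of the low mode, below which 60.6% of probe sets had their mean. Folds that start or end in the low mode are imprecise. Since separate cultures are not named, a p-value covers no more than array-to-array spread, possibly technical, and the number of arrays limits the precision. In a bulk sample, fewer cells making a transcript and less of it per cell cannot be told apart.

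ATAD3A itself read 7.73, 7.78 and 7.80 in the control arrays and 7.41, 7.03 and 7.39 in the knockdown arrays. All knockdown arrays thus lay below all controls, with a change of -0.49 ± 0.11 (SE; limma adjusted p = 0.022). The call was lost without control replicate 1 (limma adjusted p = 0.0596), control replicate 2 (0.0687) or control replicate 3 (0.0748). Its probe set is of the x_at type, whose probes may also bind related transcripts. Of markers of the cell line, VIM, CD44, EGFR, KRT18 and CAV1 were above the low mode in both groups. ESR1 and PGR, the hormone receptor genes that triple-negative cells lack, were in the low mode, with ESR1 at 3.40 in control and 3.43 in knockdown and PGR at 2.65 and 2.68. ERBB3, listed as low in this line, was above the low mode and rose from 6.62 to 8.04. All 7 measured leukocyte markers also had means in the low mode. PTPRC, the pan-leukocyte gene, was at 3.19 and 3.2, and the mean level of the list ran from 2.83 to 2.93 over the control arrays and from 2.6 to 2.66 over the knockdown arrays. By the brightest probe set of each gene (the highest mean over the 6 arrays), 18.4% of all genes rose and 13.0% fell by limma at an adjusted p of 0.05. Of these 7 markers, 2 fell, the endotoxin co-receptor CD14 (-1.60) and the lysozyme gene LYZ (-0.18), both within the low mode. The LYZ call was lost with an intensity trend in the variance prior (limma adjusted p = 0.0706) and with the replicate number as a block (0.0702). Of 4 endothelial markers 1 fell, PECAM1 by -1.27 (limma adjusted p = 0.0134), a call lost without control replicate 1 (limma adjusted p = 0.052). Another PECAM1 probe set, with both means above the low mode, changed by -0.66 (limma adjusted p = 0.113), and a dimmer one by -0.62 (limma adjusted p = 0.0462). Of 5 fibroblast markers 1 rose, COL1A1 by 1.01 from 8.35, but another COL1A1 probe set above the low mode changed by -0.37 (limma adjusted p = 0.152). LUM, another fibroblast marker, changed by 0.55 (limma adjusted p = 0.0594) and was called without knockdown replicate 1 (limma adjusted p = 0.00773) and in 5 other settings, which makes 2 higher. CDH5 and VWF of the endothelial and COL3A1 and DCN of the fibroblast list were in the low mode in both groups. The mean level ran from 3.37 to 3.53 in control and from 3.01 to 3.19 in knockdown for the endothelial list, and from 3.95 to 4.05 and from 4.26 to 4.39 for the fibroblast list. The part of these markers in the chemokine results was not tested.

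The chemokines did not move in a common direction. By their brightest probe set, CXCL2, CXCL3, CXCL5, CXCL16, CCL5 and CCL20 rose, CXCL1, CXCL8 and CXCL10 fell, and CCL2 did not pass the test. That is 6 of 10 higher and 3 of 10 lower, against the 18.4% and 13.0% of all genes. The median change of the 10 genes was 0.84, against -0.00084 over all genes. Of the 17 probe sets 13 were called, 9 upward and 4 downward, where 22.4% of all probe sets were called. The same number, 13 of 17, had groups that did not overlap, against 33.2% of all probe sets. The share of called probe sets rises with signal, to 52.6% of those with a mean above the low mode. Of the chemokine probe sets, 8 lay in the low mode on all 6 arrays. The 10 genes were chosen with earlier results of these data known, so the comparisons with all genes and all probe sets are descriptive.

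**Figure D1:**
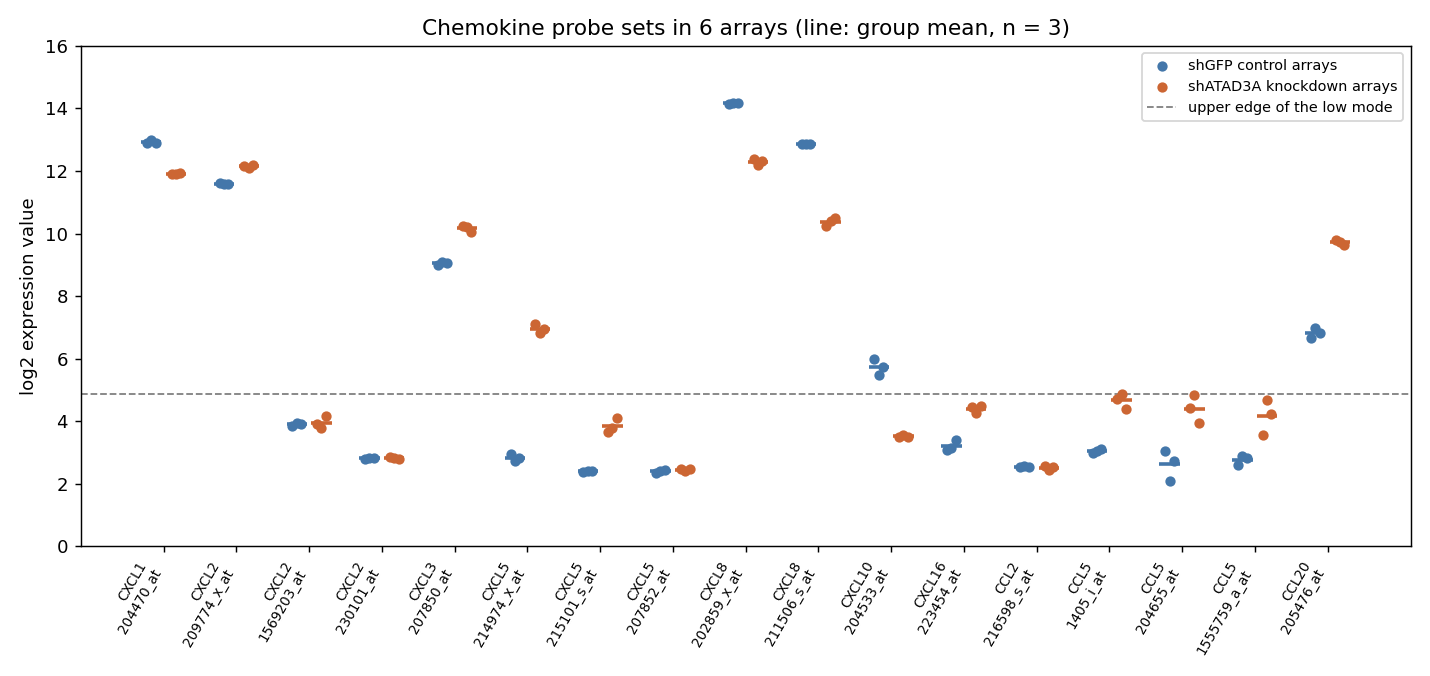
Log2 expression value (vertical axis) of each of the 17 chemokine probe sets on the 3 shGFP control and 3 shATAD3A knockdown arrays; points are arrays, short lines are group means and the dashed line is the upper edge of the low mode at 4.87. CXCL8 and CXCL1 are lower, and CXCL3, CCL20 and the brightest CXCL5 probe set higher, on every knockdown array than on any control array.

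Among the neutrophil-attracting chemokines, CXCL8 and CXCL1 fell while CXCL2, CXCL3 and CXCL5 rose. CXCL8, also called interleukin-8, has 2 probe sets. On the brighter one (202859_x_at) it read 14.14, 14.19 and 14.19 in control and 12.39, 12.19 and 12.31 in knockdown. Every knockdown array was lower, with a gap of 1.75 between the groups. The change was -1.88 ± 0.056 (SE; limma adjusted p = 1.721e-05), or 3.68-fold lower. The other CXCL8 probe set (211506_s_at) fell further, from 12.86, 12.86 and 12.85 to 10.25, 10.39 and 10.51. Its change of -2.48 ± 0.067 (SE; limma adjusted p = 1.281e-05) was 5.57-fold, so the probe sets of this gene gave one direction and different sizes.

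CXCL1, also named GRO-alpha, was lower in all knockdown arrays. Its only probe set (204470_at) read 12.89, 12.98 and 12.91 in control and 11.90, 11.89 and 11.95 in knockdown, which gives -1.02 ± 0.035 on the log2 scale (SE; limma adjusted p = 2.561e-05). This is a 2.02-fold fall with an SD of at most 0.048 in either group.

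CXCL3, or GRO-gamma, went the other way. It read 8.99, 9.10 and 9.06 in control and 10.25, 10.20 and 10.04 in knockdown, and the groups were separated by 0.95. The change on its only probe set (207850_at) was 1.11 ± 0.062 (SE; limma adjusted p = 0.000124), or 2.17-fold higher. CXCL2, or GRO-beta, read 11.62, 11.57 and 11.58 in control and 12.15, 12.11 and 12.20 in knockdown on its brightest probe set (209774_x_at). This rise of 0.57 ± 0.033 (SE; limma adjusted p = 0.000143) was the smallest among the called chemokines. The other CXCL2 probe sets stayed in the low mode, with changes of 0.056 (limma adjusted p = 0.854; 1569203_at) and -0.0052 (limma adjusted p = 0.964; 230101_at). With the 3 probe sets of CXCL2 averaged, its change was 0.21 (limma adjusted p = 0.00813). CXCL1, CXCL2 and CXCL3 are close paralogs, and the probe sequences were not examined, so signal shared between them, most of all on the x_at type, is uncertain.

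CXCL5, also known as ENA-78, showed the largest change of the 10 genes on its brightest probe set, and its probe sets disagreed. The brightest (214974_x_at) read 2.95, 2.73 and 2.83 in control and 7.10, 6.81 and 6.95 in knockdown. It moved from the low mode to well above it, by 4.11 ± 0.091 (SE; limma adjusted p = 7.600e-06), and 0.13% of all probe sets changed by as much in either direction. The second (215101_s_at) rose by 1.46 ± 0.11 (SE; limma adjusted p = 0.000384), from 2.38, 2.39 and 2.40 to 3.66, 3.77 and 4.10, and stayed within the low mode. The third (207852_at) read between 2.35 and 2.47 on all arrays, with overlapping groups and a change of 0.042 (limma adjusted p = 0.604). Averaged over the 3 probe sets, CXCL5 changed by 1.87 (limma adjusted p = 1.857e-06).

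**Figure D2:**
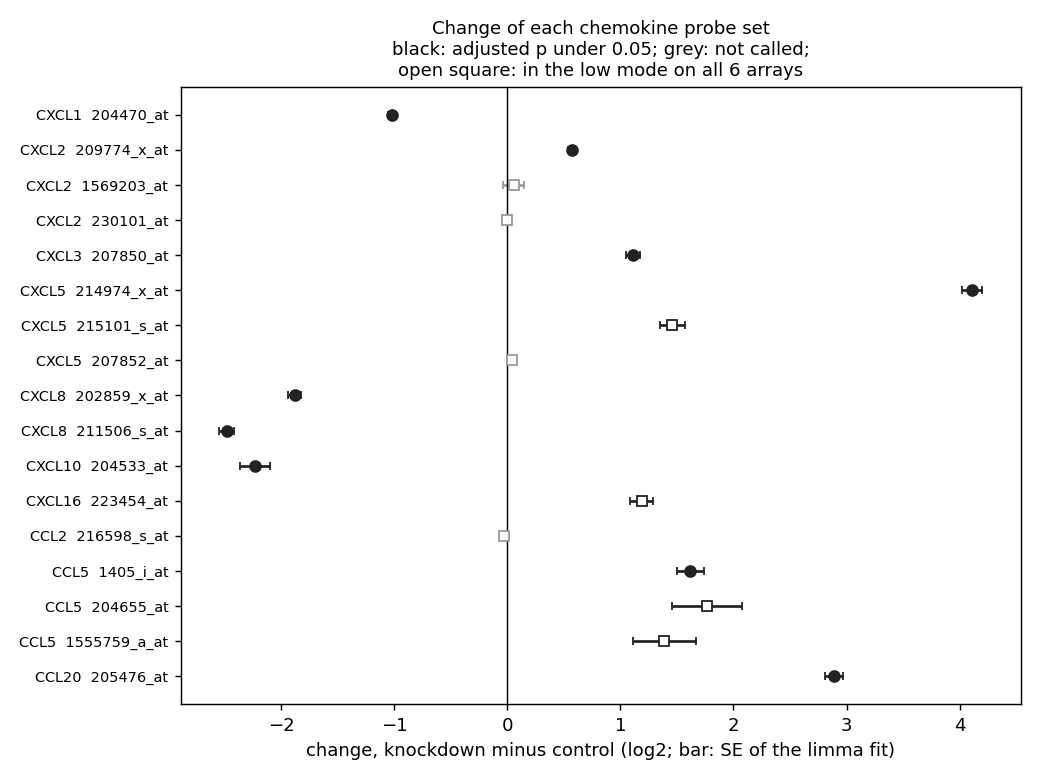
Change of each chemokine probe set, knockdown minus control, on the log2 scale (horizontal axis); bars are the SE of the limma fit, black marks are called at an adjusted p of 0.05, grey marks are not called, and open squares lie in the low mode on all 6 arrays. The called changes run from -2.48 for a CXCL8 probe set to 4.11 for a CXCL5 probe set.

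The promoters of these genes are shown because genes that rose and genes that fell share a short element there. The sequences run from position -140 to -21, counted back from the annotated start, 5′ to 3′ on the strand of the gene, from RefSeq (GRCh38.p14), and capitals mark the motif matches described below. They lie at chr4:73869253-73869372 (plus strand), chr4:74099216-74099335 (minus), chr4:74038710-74038829 (minus), chr4:73998698-73998817 (minus) and chr4:73740429-73740548 (plus).
CXCL1: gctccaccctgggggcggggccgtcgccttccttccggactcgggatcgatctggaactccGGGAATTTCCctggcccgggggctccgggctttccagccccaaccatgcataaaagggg
CXCL2: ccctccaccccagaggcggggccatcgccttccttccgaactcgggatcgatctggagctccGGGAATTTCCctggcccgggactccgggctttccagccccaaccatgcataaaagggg
CXCL3: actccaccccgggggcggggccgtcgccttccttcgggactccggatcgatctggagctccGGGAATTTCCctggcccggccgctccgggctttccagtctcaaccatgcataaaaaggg
CXCL5: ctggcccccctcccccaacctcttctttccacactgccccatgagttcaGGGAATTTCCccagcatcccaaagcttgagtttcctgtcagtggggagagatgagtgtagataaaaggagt
CXCL8: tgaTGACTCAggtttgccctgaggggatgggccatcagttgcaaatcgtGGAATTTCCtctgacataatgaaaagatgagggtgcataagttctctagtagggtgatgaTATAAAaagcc

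Promoters of 7 of the 10 chemokines were matched in the table, those of CXCL1, CXCL2, CXCL3, CXCL5, CXCL8, CXCL10 and CCL20. The motifs were searched on both strands in the window from 250 bases before to 50 after the start. The letters GGAATTTCC, an NF-κB-type core, were found in 6 of the 7 promoters and in 0.472% of 27305 gene promoters. CXCL1, CXCL2, CXCL3 and CXCL5 hold them with a G in front (GGGAATTTCC), a form found in 0.161% of promoters. The core begins at position -78 in CXCL1 and CXCL3, -77 in CXCL2, -90 in CXCL5 and -91 in CXCL8. CXCL1 and CXCL8, which fell, thus carry the same 9 letters near the start as CXCL2, CXCL3 and CXCL5, which rose. CXCL8 also holds TGANTCA, an AP-1-type motif, from position -137 to -131, where the pattern matches on both strands, found in 7.76% of promoters, and the TATA box letters TATAAA, found in 12.0%. Over the 250 bases before the start, CXCL1 and CXCL3, which moved in opposite directions, were 81.4% identical in a global alignment, and CXCL2 and CXCL3, which both rose, were 73.4% identical. CXCL1 and CXCL8, which both fell, were 43.9% identical. A match of letters describes the sequence and does not show binding.

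The neutrophil-attracting genes lie in one run with other chemokine genes on chromosome 4, and their changes are given here in chromosomal order, which was taken from the GRCh38.p14 gene table. The run goes CXCL8 (-1.88), CXCL6 (-0.0013), PF4V1 (-0.016), CXCL1 (-1.02), PF4 (2.65), PPBP (-0.011), CXCL5 (4.11), CXCL3 (1.11) and CXCL2 (0.57). The genes that fell are the first and the fourth of this run, and the last 3 rose. CXCL6, PF4V1 and PPBP, the remaining chemokine genes of the run, had low-mode values throughout and did not pass the test. PF4, platelet factor 4, rose from 4.39, 4.69 and 4.52 to 7.23, 7.29 and 7.03 (limma adjusted p = 3.519e-05) on an x_at-type probe set. PF4 and PF4V1 are close paralogs, and the source of that signal between them is uncertain. Beyond CXCL2, the next measured gene MTHFD2L, a folate enzyme, changed by -0.051 (limma adjusted p = 0.581). The growth factor genes EREG and BTC after it rose by 4.31 and 1.71. PARM1, the next gene, fell by 4.87 on the log2 scale. Before CXCL8, RASSF6 rose by 2.12, and the 5 genes before it were not called. Direction thus differed between adjacent measured genes at several places in this stretch.

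**Figure D3:**
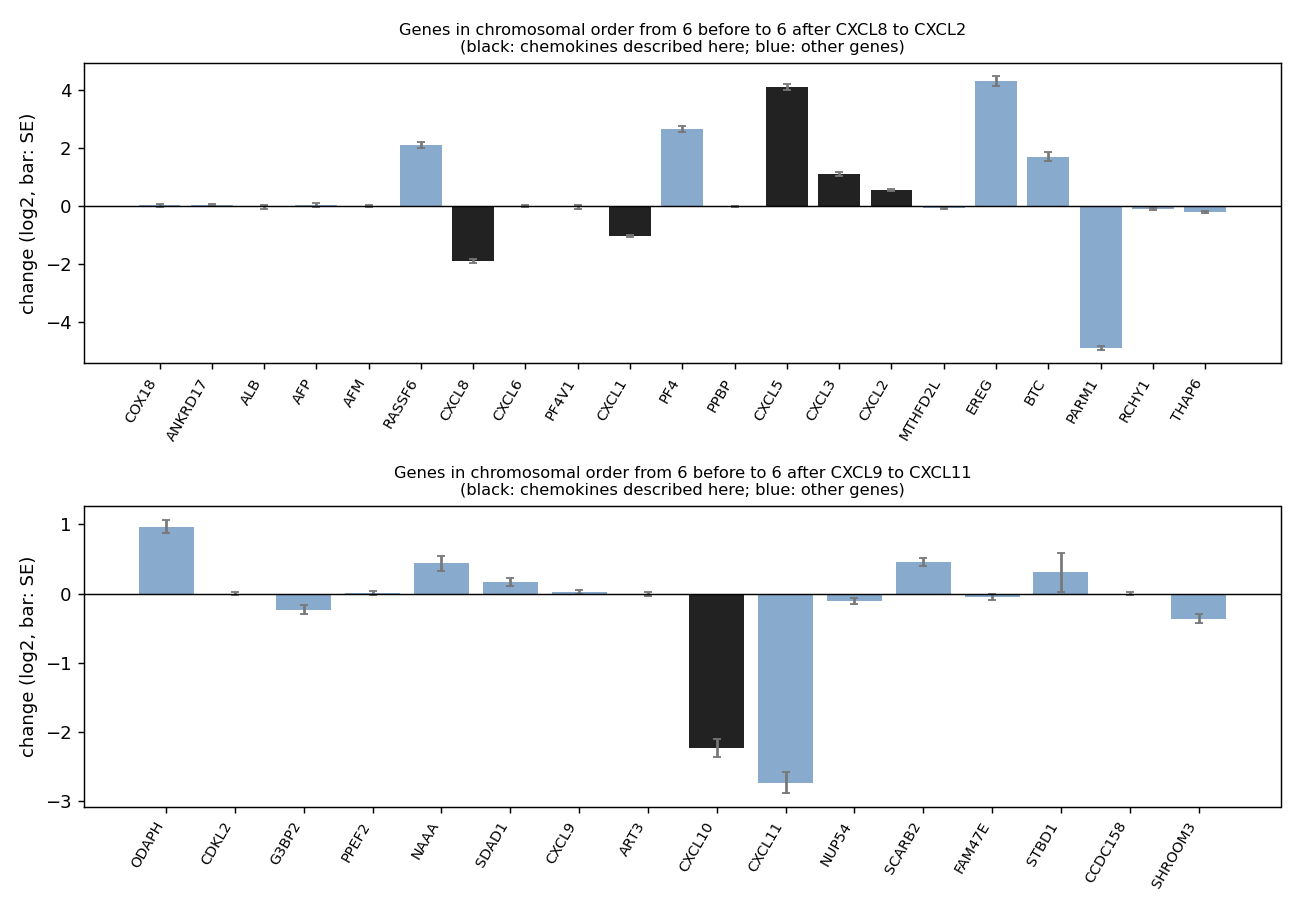
Change, knockdown minus control, on the log2 scale (vertical axis, bars with SE) of measured protein-coding genes in chromosomal order around CXCL8 to CXCL2 (upper) and CXCL9 to CXCL11 (lower), with 6 genes on either side; black bars are chemokines of the 10 described and blue bars other genes. CXCL8 and CXCL1 are below 0, CXCL5, CXCL3 and CXCL2 above 0, and CXCL10 and CXCL11 lie side by side below 0.

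CXCL10, the interferon-type chemokine, fell into the low mode. Its probe set (204533_at) read 6.0, 5.49 and 5.73 in control and 3.49, 3.57 and 3.49 in knockdown. The groups were 1.92 apart, with all controls above and all knockdown arrays below the edge of the low mode. The change was -2.23 ± 0.13 (SE; limma adjusted p = 0.000139), and its size is imprecise because the knockdown values hold little signal. CXCL11, its neighbour on chromosome 4 and another CXCR3 ligand, fell on both of its probe sets. The brighter went from 8.80, 8.94 and 8.94 to 6.23, 5.85 and 6.41, a change of -2.73 ± 0.15 (SE; limma adjusted p = 0.000108), above the low mode in both groups. The other changed by -2.41 (limma adjusted p = 0.00101). CXCL9, the third CXCR3 ligand of the run, was at 2.41 and 2.44 and not called (limma adjusted p = 0.681).

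The CXCL10 promoter is printed starting at position -240 (chr4:76023618-76023737, minus strand), where it holds both an interferon response-type motif and the NF-κB-type core in the reverse orientation.
CXCL10: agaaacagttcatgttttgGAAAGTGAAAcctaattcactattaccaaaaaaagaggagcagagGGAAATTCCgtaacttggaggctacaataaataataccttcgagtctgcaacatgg

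GAAANNGAAA, the interferon response-type motif, begins at position -221 of CXCL10 and was found in 3.65% of promoters. Among the 7 chemokine promoters it occurred in 1, that of CXCL10. The core on the reverse strand begins at position -176.

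CXCL16, the membrane-bound chemokine, read 3.08, 3.14 and 3.41 in control and 4.46, 4.26 and 4.48 in knockdown (223454_at). The groups did not overlap and the change was 1.19 ± 0.10 (SE; limma adjusted p = 0.000642). All 6 values lay in the low mode, so this is a rise within the range where signal is weak. ADAM10 and ADAM17, the proteases known to shed CXCL16, were bright on their own probe sets and not called, at changes of -0.026 (limma adjusted p = 0.717) and -0.10 (limma adjusted p = 0.0649). Under quantile normalization ADAM17 passed the test, at -0.12 (limma adjusted p = 0.0242).

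Of the CC chemokines, CCL20 rose strongly, CCL5 rose at low signal and CCL2 was in the low mode throughout. CCL20, the ligand of CCR6, read 6.67, 6.97 and 6.83 in control and 9.78, 9.72 and 9.64 in knockdown (205476_at). The lowest knockdown array was 2.67 above the highest control. The change was 2.89 ± 0.083 (SE; limma adjusted p = 1.510e-05), or 7.40-fold, with both groups above the low mode. CCL20 thus had the largest rise among the 10 genes measured above the low mode in both groups.

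The CCL20 promoter is printed from position -140 to -21 (chr2:227813702-227813821, plus strand) beside those of the CXC genes because it holds a looser form of the NF-κB-type letters.
CCL20: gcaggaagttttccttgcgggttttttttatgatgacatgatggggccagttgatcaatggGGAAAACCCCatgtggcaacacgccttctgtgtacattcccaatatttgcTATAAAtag

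That looser form is GGGNNTTTCC, found on the reverse strand of CCL20 from position -79 to -70. It also covers the matches of CXCL1, CXCL2, CXCL3 and CXCL5, which overlap the core above, and was found in 1.92% of promoters. TATAAA begins at position -29 in CCL20 and -31 in CXCL8.

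CCL5, or RANTES, rose on all 3 of its probe sets. The brightest (1405_i_at) read 2.98, 3.03 and 3.11 in control and 4.70, 4.88 and 4.40 in knockdown, which gives a rise of 1.62 ± 0.12 (SE; limma adjusted p = 0.000385). A single knockdown array, at 4.88, passed the edge of the low mode. The second (204655_at) was more variable, with 3.04, 2.10 and 2.74 in control and 4.43, 4.82 and 3.95 in knockdown, and rose by 1.77 ± 0.31 (SE; limma adjusted p = 0.01). The third (1555759_a_at) went from 2.6, 2.89 and 2.81 to 3.57, 4.67 and 4.22, a rise of 1.39 ± 0.28 (SE; limma adjusted p = 0.0166). The groups did not overlap on any of them. The call of the third was lost without control replicate 1 (limma adjusted p = 0.0622), control replicate 3 (0.0526) or knockdown replicate 3 (0.0623).

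CCL2, or MCP-1, read between 2.43 and 2.57 on all 6 arrays (216598_s_at). The groups overlapped and the change was -0.025 ± 0.041 (SE; limma adjusted p = 0.845). This probe set lies in the low mode, so a transcript below the detection range of the array would read the same.

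Chemokines outside the 10 were mostly in the low mode. Of 10 other CXC chemokines 1 rose and 1 fell, PF4 and CXCL11 as given above, with a median change of -0.012. Of 19 other CC, XC and CX3C chemokines 2 rose and 0 fell, with a median of 0.0055. Neither list had a larger share of called genes than the 18.4% higher and 13.0% lower among all genes. CCL26, an eosinophil attractant that binds CCR3, rose from 5.12, 4.86 and 5.06 to 7.24, 7.39 and 7.44 (limma adjusted p = 3.224e-05). CX3CL1, a membrane-bound chemokine, rose from 3.79 ± 0.10 to 5.81 ± 0.48 (SD, n = 3; limma adjusted p = 0.00191) when read from the brightest of its probe sets. Another CX3CL1 probe set was in the low mode, with a change of 0.041 (limma adjusted p = 0.539). CCL28, an epithelial chemokine, changed by 0.42 where brightest (limma adjusted p = 0.212), while its other probe sets rose by 1.61 (limma adjusted p = 6.688e-05) and 1.06 (limma adjusted p = 0.00413).

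The receptors of these ligands were hardly measured in the cells. Of 21 chemokine receptor genes 19 had means in the low mode, with values from 1.78 to 3.06. CXCR1 and CXCR2, the receptors of the neutrophil-attracting group, were at 2.05 and 2.87 in control, and CXCR3, CXCR6, CCR2 and CCR6 were also in the low mode and not called. Of the 21 receptor genes 4.76% were called, where 18.4% of all genes rose and 13.0% fell. CCRL2, 1 of the 2 above the low mode, was at 9.22 and 9.03 and not called (limma adjusted p = 0.127). CXCR4, the receptor of CXCL12, was the other, and the 1 receptor gene that passed the test. It read 11.63, 11.51 and 11.60 in control and 10.71 on each knockdown array, giving -0.87 ± 0.036 (SE; limma adjusted p = 4.845e-05), and its other probe sets changed by -0.91 and -1.11. CXCL12 itself was in the low mode.

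**Figure D4:**
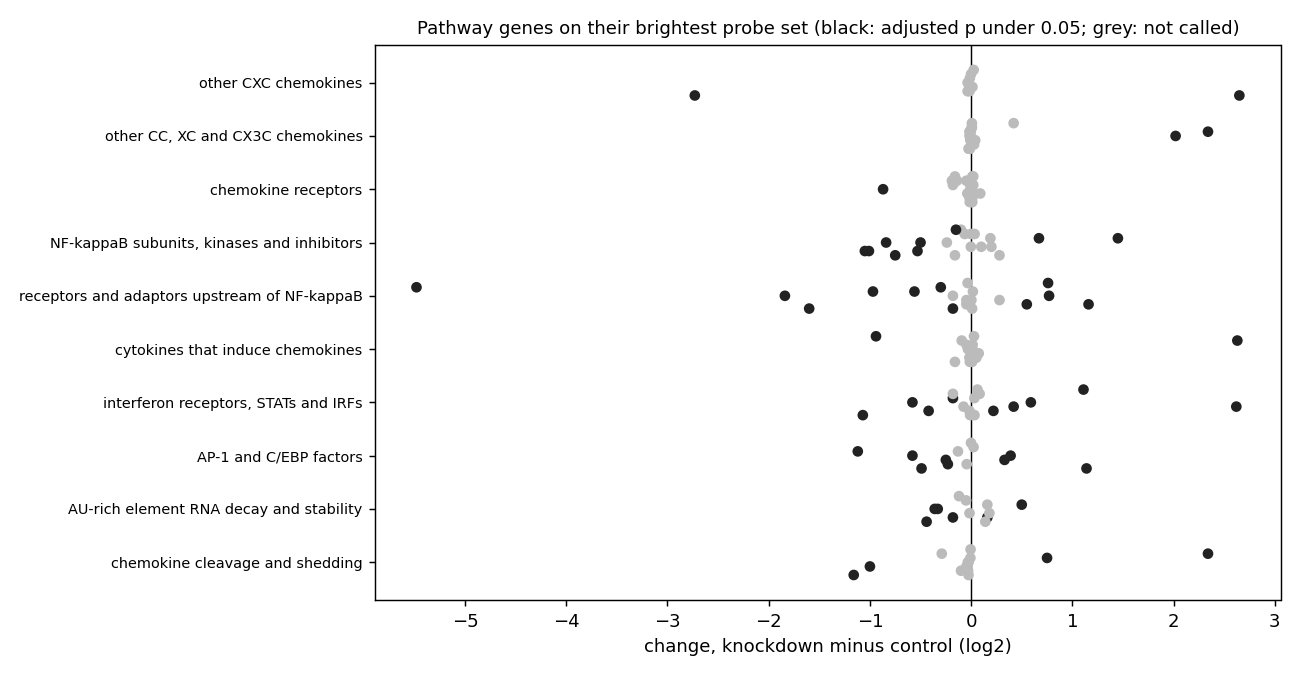
Change, knockdown minus control, on the log2 scale (horizontal axis) of each measured gene of the 10 pathway lists (vertical axis) on its brightest probe set; black points are called at an adjusted p of 0.05 and grey points are not. Most receptor and other chemokine genes lie near 0, while the point farthest to the left, at -5.48, is TLR4.

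Genes of pathways that act on chemokine transcripts moved in both directions. Over the 6 lists of such regulators, 17 of 95 measured genes rose and 28 fell, where 18.4% of all genes rose and 13.0% fell. Most of these regulators were above the low mode, where 52.6% of all probe sets were called in either direction. Of 20 NF-κB subunits, kinases and inhibitors 2 rose and 7 fell (45.0% called), with a median change of -0.084. Above the low mode were 19 of the 20, and 9 of these were called, a share below that 52.6%. Without knockdown replicate 1 the count was 4 higher and 6 lower, with TNFAIP3 (limma adjusted p = 0.044) and TNIP2 (0.0296) added and RELA lost. NFKBIZ, an atypical nuclear IκB protein that acts on secondary inflammatory genes, rose from 11.41, 11.54 and 11.51 to 12.97, 12.96 and 12.88 (limma adjusted p = 1.783e-05), and its other probe set rose by 1.66. MAP3K14, the kinase of the non-canonical pathway, rose by 0.67. CYLD, a deubiquitinase that restrains NF-κB, and TAB2, an adaptor of the TAK1 kinase, changed by -1.05 and -1.01, but another CYLD probe set above the low mode changed by -0.10 (limma adjusted p = 0.342). Of the subunit genes, RELB fell by 0.75 on the log2 scale. RELA changed by -0.15 (limma adjusted p = 0.0464), a call lost without knockdown replicate 1 (0.11) or 2 (0.096) or control replicate 1 (0.08), 2 (0.147) or 3 (0.144), while NFKB1 had -0.10 (limma adjusted p = 0.371) and REL -0.063 (limma adjusted p = 0.443).

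Of 19 receptors and adaptors upstream of NF-κB 4 rose and 7 fell (57.9% called), with a median of -0.047. Among all genes 18.4% rose and 13.0% fell. Of the 13 above the low mode 9 were called, where 52.6% of all probe sets above it were called. One of the 7, TLR3 at -0.97 (limma adjusted p = 0.0499), lost its call without knockdown replicate 3 (0.0882) or control replicate 1 (0.105), 2 (0.144) or 3 (0.115). IL1RAP, also among the 7 at -0.56, rose by 0.62 on its other probe set (limma adjusted p = 0.0352). TRAF6, not called where brightest, changed by -0.8 on its other probe set (limma adjusted p = 0.00694). TLR4, the endotoxin receptor, fell from 9.26, 9.42 and 9.32 to 3.92, 3.46 and 4.18 (limma adjusted p = 2.314e-05), that is into the low mode. TLR2, a receptor for bacterial lipoproteins, changed by -1.84. The interleukin receptor genes IL17RA and IL1R1 rose by 1.16 and 0.77. Of 15 cytokines that induce chemokines 1 rose and 1 fell (13.3% called, against the 18.4% and 13.0% of all genes), with a median of 0.0043. Only 3 of the 15 were above the low mode, and 2 of these were called. IL18 rose from 8.65, 9.06 and 8.95 to 11.63, 11.39 and 11.54 (limma adjusted p = 6.443e-05), and the alarmin IL1A changed by -0.94. Another IL1A probe set changed by -0.50 (limma adjusted p = 0.124). IL1B changed by -0.16 (limma adjusted p = 0.33), and TNF and the interferon genes IFNG, IFNB1 and IFNL1 were in the low mode.

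Of 17 interferon receptors, signal transducers and IRF factors 5 rose and 4 fell (52.9% called), with a median of 0.032. Among all genes 18.4% rose and 13.0% fell. Above the low mode, 8 of 14 were called, where 52.6% of all probe sets were. The count was not stable: without knockdown replicate 1 or 3 or control replicate 3, with arrays centred on their medians or with the replicate number as a block it was 3 higher and 3 lower, with the calls of IFNAR2, IRF9 and IRF1 lost. Without knockdown replicate 2 it was 3 higher and 4 lower. On its other probe sets, above the low mode, IFNAR2 rose by 0.56 (limma adjusted p = 0.00266) and 0.9 (limma adjusted p = 0.00136). USP18, which restrains interferon receptor signalling, rose by 2.62 from low-mode values, and 2 of the 3 knockdown arrays stayed in the low mode. SOCS3, an inhibitor of JAK kinases, rose by 1.11. The receptor chains IFNAR1 and IFNGR2 changed by -1.07 and -0.58. The CXCL10 and CXCL11 falls thus stood beside changes of both signs in this list.

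Of 12 AP-1 and C/EBP factors 3 rose and 5 fell (66.7% called), with a median of -0.086. Above the low mode were 9 of the 12, and 8 of these were called. Among all genes 18.4% rose and 13.0% fell, and 52.6% of all probe sets above the low mode were called. JUND and JUNB changed by -1.12 and -0.58, while ATF3 and CEBPD rose by 1.14 and 0.39. FOSL2, counted as lower at -0.23, rose by 0.28 on another probe set above the low mode (limma adjusted p = 0.0242). CEBPG, not called where brightest, rose by 0.45 on its other probe set (limma adjusted p = 0.00444). Of 12 genes of AU-rich element binding, which governs the decay of many chemokine mRNAs, 2 rose and 4 fell, with a median of -0.033. Without knockdown replicate 2 or control replicate 2 or 3 the count was 1 higher and 2 lower, with ELAVL1, KHSRP and ZC3H12C lost, and without knockdown replicate 1 it was 3 higher and 2 lower. Without knockdown replicate 3, with arrays centred on their medians or with the replicate block it was 1 higher and 3 lower. ELAVL1, counted as higher at 0.16, changed by -0.39 on another probe set above the low mode (limma adjusted p = 0.00945). HNRNPD, not called where brightest, changed by -0.89 on another probe set (limma adjusted p = 0.000198). The remaining probe sets of both genes were not called. TIAL1, also not called where brightest, changed by -0.34 on another probe set above the low mode (limma adjusted p = 0.00262). ZFP36L2, a decay factor, rose by 0.50, and AUH changed by -0.44. Of 13 proteases that cleave or shed chemokines 2 rose and 2 fell (30.8% called), near the 18.4% and 13.0% of all genes, with a median of -0.03. Of the 13, 6 were above the low mode and 4 of these were called. DPP4, which trims the first residues of CXCL10 and other chemokines, rose from 5.06, 5.22 and 4.99 to 7.60, 7.15 and 7.54 (limma adjusted p = 0.000137). CTSL rose by 0.75, and the matrix metalloproteases MMP1 and MMP14 changed by -1.16 and -1.0.

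Genes with the most similar profile were found by the root-mean-square distance over the 6 arrays, after the control mean of each gene was subtracted. With 2 groups this mostly reflects the size of the change. CXCL8 was nearest to KHDRBS3, ARMCX1 and SLC25A37, at distances from 0.052 to 0.0577, and CXCL1 to UBE2E2, CHML and JMY. CXCL3 was nearest to SLCO1B3 (0.0254) and CCL20 to GRB14 (0.0855), whose changes were 1.14 and 2.87. None of the nearest 3 genes of any of the 9 called chemokines was another chemokine.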

How the data were processed

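Labelled RNA (from 250 ng total RNA by 3' in vitro transcription, per the labels' protocols) of 6 samples was hybridised to U133 Plus 2.0 arrays. The authors' deposited values are read as log2 from their range (0.826 to 16.6) and shape; the scale, background correction and summary method are not given in the sources used here. Per the submitters' processing notes, Partek was used. Groups were taken from sample titles.

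Of 54675 probe sets 62 controls were set aside and 54613 tested, without a filter on dim ones. In the platform annotation, which can be old, 41091 had 1 symbol, 1801 several and 11721 none; 0 symbols changed through Entrez IDs. The main test was limma 3.58.1 in R 4.3.3, with knockdown set against control. The two-sided p-values were adjusted over all probe sets by the Benjamini-Hochberg method and called at 0.05, and no covariate was used. The fit was tested on simulated data. A gene is represented by its probe set with the highest mean. Promoters were aligned with Biopython 1.88. The 10 chemokines, the 10 pathway lists and the 5 marker lists were chosen with earlier results of these data known. Genes eligible for naming were the called ones of a list with the most extreme change, at most 2 in each direction, and not all are printed; other genes, the chromosomal run, the low-mode edge and the promoter motifs were chosen after values were seen. Alternatives covered normalization, dim probe sets, variance prior, array weights, threshold, probe set per gene, replicate number and leaving out each array.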

Additional observations from a re-analysis of the deposited data

How the results depend on the processing

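Over the 15 other settings, the 10 chemokine genes gave 6 higher and 3 lower in each, including quantile normalization and centring of arrays on their medians. Of the 17 probe sets, 7 to 9 were higher and 4 lower, in the settings fitted by probe set. Among those that stayed in a fit, only CCL5 probe sets lost a call: 204655_at at an adjusted p of 0.01, and 1555759_a_at there and on leaving out 1 of 3 arrays. No probe set that was called changed sign in the settings run. The ATAD3A change of -0.49 was not called at an adjusted p threshold of 0.01 (limma adjusted p = 0.022), and ranged from -0.56 to -0.37 when 1 array was left out, where 3 of 6 omissions ended the call. Replicate numbers are shared by the groups, but the same-numbered arrays had correlated deviations of -0.213, -0.106 and 0.0379, so the numbers were not taken to pair samples. With the replicate number as a block, 10773 probe sets were called against 12240, and 9 and 4 chemokine probe sets remained higher and lower. Depth here means signal over background: detection calls were not used, and CCL2, CXCL16, CCL5 and CXCL10 in knockdown lie where the arrays hold little signal.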
